A study of Danio rerio with 4 samples.

Results

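A set of 10 genes of venous and sinusoidal scavenger endothelium was followed in RNA from sorted zebrafish endothelial cells. The genes were stab1, stab2, mrc1a, lyve1a, lyve1b, dab2, nr2f2, prox1a, tll1 and ifi30, and a row of the expression table was kept where its gene symbol equalled one of these names without regard to case. This found 7 of the 10 names in 8 of the 31951 rows, because dab2 matched 1 row spelled dab2 and 1 spelled DAB2. No row bore the exact symbols mrc1a, prox1a or ifi30 (3 names). A further 5 rows with related symbols are described beside the set and are not counted in it. They are PROX1, which RefSeq lists as an older name of prox1a, MRC1, mrc1b, ifi30a and ifi30b. Whether MRC1 is mrc1a, and whether ifi30a or ifi30b is the listed ifi30, was not settled. Symbols are printed as the naming table gives them, so capitals mark neither protein nor species.

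Both groups carried kdrl:mcherry, a red fluorescent reporter under the promoter of the VEGF receptor gene kdrl, and were endothelial cells sorted by that fluorescence from dissociated fish. The kdrl:cxcr1 group also carried a transgene in which the same promoter drives the chemokine receptor gene cxcr1 throughout kdrl-positive endothelium, and the group without it is called wild-type. Each genotype gave 1 library from each of 2 independent clutches, 4 libraries in all. The labels give embryos with no age, and no drug or other treatment.

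Venous and sinusoidal endothelial cells take up macromolecules from the blood through large scavenger receptors, internalise them in clathrin-coated vesicles and break them down in lysosomes. In the zebrafish embryo such cells line the caudal vein plexus, where haematopoietic stem and progenitor cells lodge before they move to the kidney. Venous identity is set by the nuclear receptor Nr2f2, and lymphatic endothelium, which arises from veins, is specified by the homeodomain factor Prox1.

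Values are FPKM, fragment numbers divided by transcript length and by library size, as deposited, so levels can be compared between genes. Differences are on the log2(FPKM + 1) scale. The transgenic receptor did not separate the genotypes: cxcr1 read 12.8 FPKM in clutch 1 and 0 in clutch 2 of the libraries labelled kdrl:cxcr1, against 8.14 FPKM and 0 where the label is wild-type. Genotype directions therefore compare libraries by their labels, "with the transgene" means labelled kdrl:cxcr1, and the values of a genotype are given in the order clutch 1, clutch 2. The share of rows listed at 0 was 31.9% in both clutch 1 libraries, 43.5% in kdrl:cxcr1 clutch 2 and 42.0% in wild-type clutch 2. The FPKM of all rows summed to 1090468 and 1185953 with the transgene and to 986557 and 1280969 without it. FPKM values carry no read depth, so no counting error can be given. The sorted cells had endothelial markers in all 4 libraries, with none of 20 pan-endothelial rows at 0. Markers of other cells were present too. Summed erythroid rows read 6617 and 1563 FPKM with the transgene and 3106 and 1689 without it, and epidermal rows 1285 and 1014, and 1482 and 1631. The pan-endothelial sums were 775 and 999, and 758 and 1284. The purity of the sorts was not tested. kdrl read 140 and 157 FPKM with the transgene and 128 and 274 FPKM without it. The adhesion gene cdh5 read 95.2 and 128 FPKM with the transgene and 92.5 and 178 FPKM without it.

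The scavenger receptor genes were among the more abundant transcripts in these libraries. stab1, which encodes the scavenger receptor stabilin-1, read 79.4 and 136 FPKM with the transgene and 73.5 and 135 FPKM without it. The 2 libraries of a clutch lay close together, and both of clutch 2 were above both of clutch 1. stab2, which encodes the hyaluronan-binding stabilin-2, read 48.3 and 76.9 FPKM with the transgene and 31.4 and 95.9 FPKM without it. Its genotypes overlapped, since the lowest and the highest value were both wild-type. In every library stab1 exceeded stab2, by 1.41 to 2.34 times. Relative to kdrl in the same library, stab1 stood at 49.3% to 87.1% and stab2 at 24.5% to 49.1%.

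The paralogous lyve1 genes encode hyaluronan receptors that mark lymphatic and venous endothelium, and they differed widely in level. lyve1b read 74.6 and 134 FPKM with the transgene and 128 and 161 FPKM without it. In each clutch the wild-type library was the higher, while kdrl:cxcr1 clutch 2 lay above wild-type clutch 1. lyve1a read 3.01 and 0.372 FPKM with the transgene and 2.93 and 8.58 FPKM without it. The clutch 1 libraries were nearly equal and those of clutch 2 held its lowest and highest values. lyve1b exceeded lyve1a by as little as 18.7 times in wild-type clutch 2 and by as much as 361 times in kdrl:cxcr1 clutch 2. The 361 rests on lyve1a at 0.372 FPKM, a value below 1 FPKM. In clutch 1 the ratio was 24.8 with the transgene and 43.7 without it.

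dab2 encodes a clathrin adaptor that loads receptors into coated vesicles and had the highest mean level of the 8 rows. The row dab2 (ENSDARG00000031761) read 97.9 and 150.1 FPKM with the transgene and 95.0 and 165 FPKM without it. As for stab1, clutch 2 lay above clutch 1 and the genotypes overlapped. The row DAB2 (ENSDARG00000053091) read 63.4 and 69.6 FPKM with the transgene and 45.3 and 50.5 FPKM without it, so both kdrl:cxcr1 libraries were above both wild-type libraries. The ratio of the row dab2 to the row DAB2 ran from 1.54 to 3.28. Which of the rows corresponds to the named zebrafish gene, and whether reads were split between them, was not settled.

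NR2F2, the venous identity factor, went the other way between clutches. It read 91.3 and 30.4 FPKM with the transgene and 70.4 and 37.5 FPKM without it. Both clutch 1 libraries were above both clutch 2 libraries, and the genotype with the higher value changed from one clutch to the other. TLL1, which encodes a tolloid-like metalloprotease that cleaves BMP antagonists, read 10.5 and 8.33 FPKM with the transgene and 12.3 and 31.2 FPKM without it. The kdrl:cxcr1 libraries were both below the wild-type libraries, by little in clutch 1 and more in clutch 2.

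**Figure D1:**
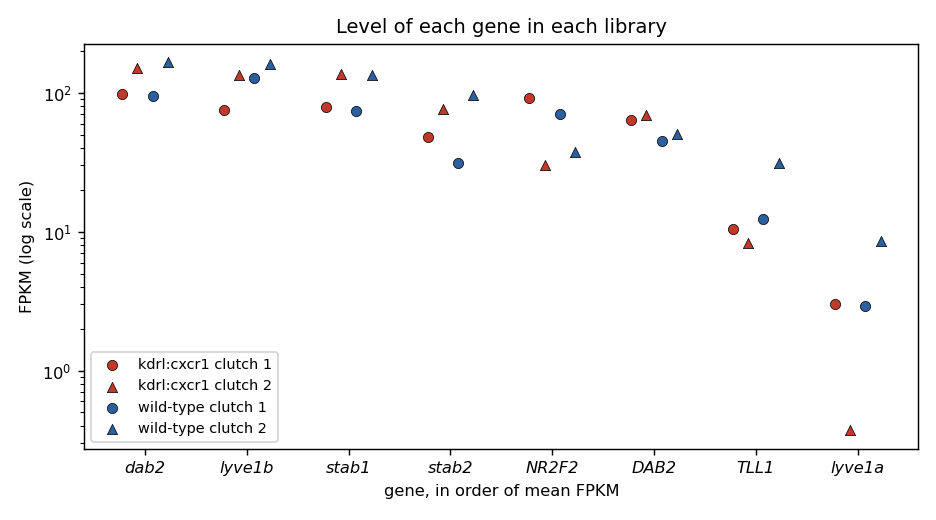
FPKM (vertical, log scale) of each of the 8 rows in each of the 4 libraries, with colour for genotype and shape for clutch, ordered by mean level. The triangles of clutch 2 lie above the circles of clutch 1 for dab2, lyve1b, stab1 and stab2 and below them for NR2F2, while lyve1a reaches 0.372 FPKM in kdrl:cxcr1 clutch 2.

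In mean level over the 4 libraries the order was dab2 (127 ± 36.0 FPKM, SD, n = 4), lyve1b (124 ± 36.1), stab1 (106 ± 34.3), stab2 (63.1 ± 28.8), NR2F2 (57.4 ± 28.5), DAB2 (57.2 ± 11.2), TLL1 (15.6 ± 10.5) and lyve1a (3.72 ± 3.46). Neighbours in this order were separated in all 4 libraries at 3 steps only, stab1 over stab2, DAB2 over TLL1 and TLL1 over lyve1a. At the other steps the order changed with the library, so the means do not rank those neighbours. dab2 lay above lyve1b in 3 of the 4 libraries. lyve1b lay above stab1 in both wild-type libraries and below it in both kdrl:cxcr1 libraries. NR2F2 lay above stab2 and DAB2 in both clutch 1 libraries and below them in both clutch 2 libraries. Among genes above 0 in a library, stab1, lyve1b and dab2 stayed between the percentiles 95.4 and 97.6. NR2F2 ranged from the percentile 83.3 to 96.3, TLL1 from 52.8 to 85.7 and lyve1a from 7.53 to 59.0. The genes above 0 numbered 21766 (kdrl:cxcr1) and 21760 (wild-type) in clutch 1, and 18058 and 18544 in clutch 2. Percentiles of different clutches therefore rest on different numbers of genes.

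The rows with related symbols covered a similar range. MRC1, named for the mannose receptor that binds sugar-bearing ligands, read 62.8 and 83.0 FPKM with the transgene and 48.0 and 102 FPKM without it. It was close to stab2 in level and in its order of libraries. mrc1b, its paralogue, read 12.1 and 35.2 FPKM with the transgene and 8.42 and 30.0 FPKM without it, higher in clutch 2 in both genotypes. PROX1 read 21.6 and 30.6 FPKM with the transgene and 27.8 and 43.9 FPKM without it, so it was also higher in clutch 2. The ratio of NR2F2 to PROX1 was 4.23 and 2.53 in kdrl:cxcr1 and wild-type clutch 1 and 0.993 and 0.855 in clutch 2. ifi30a, named for a lysosomal thiol reductase, read 4.37 and 6.87 FPKM with the transgene and 3.70 and 2.49 FPKM without it. ifi30b reached 0.969 FPKM at most, was listed at 0 in both clutch 2 libraries and was not tested.

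The study compared kdrl:cxcr1 with wild-type endothelium. In the limma test run here on the deposited values for that comparison, none of the 8 rows passed. All 8 were among the 17723 genes with at least 1 FPKM in at least 2 libraries. Over those genes limma's moderated test called 2 at an adjusted p under 0.05 (0.0113%), HSP90AB1 and ENSDARG00000080647, both named here after their values were seen. With the clutch as a block it called 0. Among the 8 rows 0 passed without the block, 0 with it, and 0 had an unadjusted p under 0.05, against 6.8% of all tested genes. With 2 libraries against 2 an exact permutation test cannot give a two-sided p below 0.333, so limma's p-values rest on a spread pooled over genes. The labels describe separate clutches, and the spread behind the p-values is that between these libraries, pooled over genes.

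The largest genotype differences in the set belonged to its least abundant genes. lyve1a differed by a log2 fold change of -1.39 (SE 0.84, 95% interval -3.48 to 0.71, limma adjusted p = 0.723), made up of 0.03 in clutch 1 and -2.8 in clutch 2. TLL1 differed by -1.0 (SE 0.56, interval -2.39 to 0.39, adjusted p = 0.712), with -0.21 in clutch 1 and -1.79 in clutch 2. Leaving out 1 library moved lyve1a between -2.16 (without kdrl:cxcr1 clutch 1) and -0.61 (without kdrl:cxcr1 clutch 2), and TLL1 between -1.64 (without wild-type clutch 1) and -0.36 (without wild-type clutch 2). The size also depended on the value added before the log. When 0.1 was added in place of 1, lyve1a stood at -2.08 and TLL1 at -1.06, and when 5 was added they stood at -0.66 and -0.80. With a single library behind each clutch difference, the change from clutch to clutch could not be tested.

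Among the abundant genes the differences were smaller. lyve1b stood at -0.51 (SE 0.40, interval -1.5 to 0.47, limma adjusted p = 0.767), below wild-type in both clutches (-0.77 and -0.26). Without kdrl:cxcr1 clutch 1 it stood at -0.095. DAB2 stood at 0.47 (SE 0.32, interval -0.32 to 1.25, adjusted p = 0.742), with nearly the same value in each clutch (0.47 and 0.46). stab1 (0.06, interval -1.06 to 1.19), stab2 (0.15, interval -1.33 to 1.62), dab2 (-0.05, interval -1.09 to 0.99) and NR2F2 (0.04, interval -1.49 to 1.57) lay near 0 with adjusted p of 0.975 to 0.994. All 4 intervals include a fall of 1 log2 unit, and all but that of dab2 include a rise of 1, so they do not exclude differences of that size. They come from the fit without the clutch block, so the difference between clutches widens them. In clutch 1 and clutch 2 the differences were 0.11 and 0.02 for stab1 and 0.61 and -0.31 for stab2. For dab2 they were 0.04 and -0.14, and for NR2F2 0.37 and -0.30. The sign of stab1, stab2 and NR2F2 turned negative under median-of-ratios scaling, where the median over all genes was -0.03 instead of 0.16. The sign of lyve1b, DAB2, TLL1 and lyve1a was the same in every alternative in which they were tested, but the size was not. Under median-of-ratios scaling DAB2 stood at 0.24, lyve1b at -0.74, TLL1 at -1.21 and lyve1a at -1.53.

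**Figure D2:**
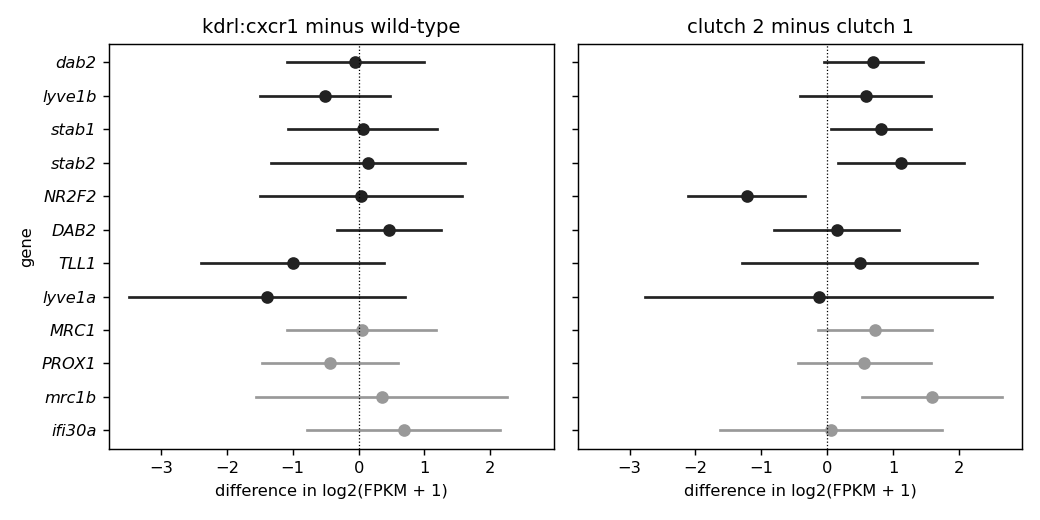
Differences in log2(FPKM + 1) with 95% intervals from limma, kdrl:cxcr1 minus wild-type on the left and clutch 2 minus clutch 1 on the right, for the 8 rows (black) and the 4 tested rows with related symbols (grey). Every genotype interval includes 0, while the unadjusted clutch intervals of stab1, stab2, NR2F2 and mrc1b do not.

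Read as a set, the 8 rows had 4 genotype differences above 0 and 4 below, with a median of -0.0058 beside 0.16 for all tested genes. The genotypes did not overlap for 2 rows, DAB2 above and TLL1 below wild-type, whereas 39.6% of all tested genes did not overlap (26% above and 13.6% below). The direction was the same in both clutches for 4 of the 8, stab1 and DAB2 above and lyve1b and TLL1 below, against 56.9% of all tested genes. The set median was 0.08 in clutch 1, with 6 rows above 0, and -0.28 in clutch 2, with 2 above. Both kdrl (0.12 and -0.80) and cdh5 (0.04 and -0.47) also stood above wild-type in clutch 1 and below it in clutch 2. Whether the endothelial share of the sorted RNA plays a part in these values was not tested. In bulk RNA, fewer cells of a type and less RNA per cell cannot be told apart.

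**Figure D3:**
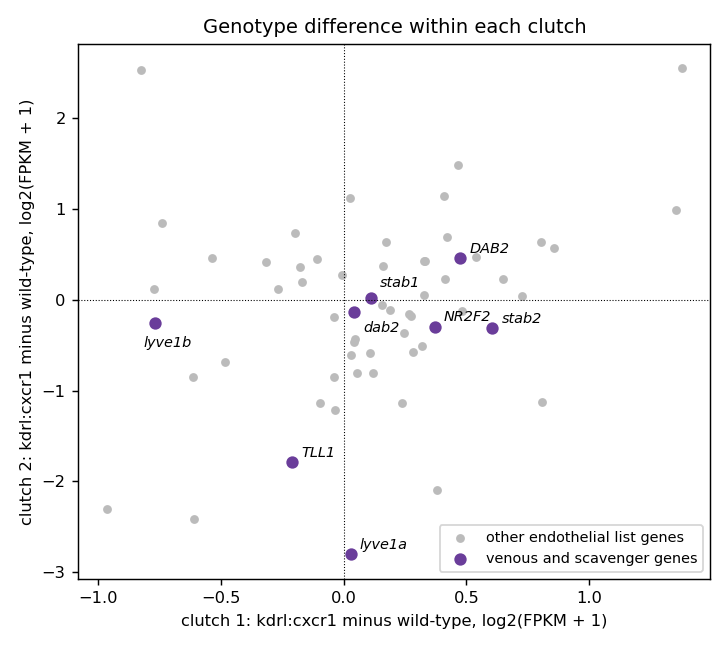
Difference between kdrl:cxcr1 and wild-type in log2(FPKM + 1), clutch 1 on the horizontal and clutch 2 on the vertical axis, for the 8 rows (purple, named) and the tested genes of the scavenger, venous, lymphatic and pan-endothelial lists (grey). lyve1a (0.03 and -2.8) and TLL1 (-0.21 and -1.79) lie low because of clutch 2, and stab1 and dab2 lie closest to the origin.

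Levels by clutch were compared in the same libraries, 2 of clutch 2 against 2 of clutch 1. Both clutch 2 libraries lay above both clutch 1 libraries for stab1, stab2, dab2 and lyve1b and below them for NR2F2, while DAB2 (0.14, and -0.094 without wild-type clutch 1), lyve1a (-0.13) and TLL1 (0.49) overlapped, and again no row passed. limma called 3 of 17723 genes (0.0169%), ENSDARG00000103621, ENSDARG00000070282 and ENSDARG00000082988, all named after their values were seen, and 0 of the 8. stab2 averaged 86.4 ± 13.4 FPKM (SD, n = 2) in clutch 2 and 39.8 ± 11.9 in clutch 1, higher by 1.12 on the log2 scale (SE 0.38, limma adjusted p = 0.467). stab1 averaged 136 ± 1.13 FPKM against 76.5 ± 4.18, higher by 0.82 (SE 0.30, adjusted p = 0.497). dab2 averaged 158 ± 10.9 FPKM against 96.5 ± 2.03 (0.70, SE 0.30, adjusted p = 0.585), and lyve1b 148 ± 18.8 against 101 ± 37.7 (0.58, SE 0.39, adjusted p = 0.809). NR2F2 averaged 33.9 ± 5.05 FPKM against 80.8 ± 14.8, a difference of -1.22 (SE 0.35, adjusted p = 0.408).

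The 2 genotypes gave the same clutch direction for 6 of the 8 rows, against 54.2% of all tested genes. For stab1 the difference was 0.77 in kdrl:cxcr1 and 0.87 in wild-type, and for dab2 it was 0.61 and 0.79. For NR2F2 it was -1.56 and -0.89. lyve1a (-1.55 and 1.29) and TLL1 (-0.30 and 1.28) went opposite ways in the genotypes. The clutches did not overlap for 5 of the 8 rows, 4 above and 1 below in clutch 2, against 35.9% of all tested genes (15.5% above and 20.4% below). An unadjusted p under 0.05 was reached by 3 rows, stab1, stab2 and NR2F2, against 9.2% of all tested genes.

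General endothelial markers are given beside these values, and limma called 0 of them by clutch, as it did of the macrophage and neutrophil rows. Of 20 tested pan-endothelial rows, 18 read higher in clutch 2 and 14 did not overlap, with a median of 0.61 beside 0.54 for the 8 rows and -0.06 for all genes. Their summed level was 775 and 758 FPKM in clutch 1 (kdrl:cxcr1, then wild-type) and 999 and 1284 FPKM in clutch 2. Macrophages share stabilin, mannose receptor, Lyve1 and Dab2 transcripts with this endothelium in mammals. Of 21 tested macrophage and neutrophil rows, 13 were higher in clutch 2, with a median of 0.57 and a summed level of 1527 and 1124 FPKM in clutch 1 and 2246 and 1245 FPKM in clutch 2. The pan-leukocyte gene ptprc was listed at 0 in all 4 libraries, and the complement genes c1qa, c1qb and c1qc were each listed at 0 in at least 1. These were a minority of the list. Of its 26 rows, 4 and 6 were at 0 with the transgene and 2 and 6 without it. The part of macrophages in the levels of the shared genes was not tested.

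When each library was scaled to its pan-endothelial rows, the clutch differences of stab1, stab2, dab2, lyve1b and TLL1 were smaller in size and those of NR2F2, DAB2 and lyve1a larger. This scaling divides all rows of a library by the same factor, so it lowers the clutch differences of abundant rows by nearly the same amount. Which of them became smaller or larger in size followed from their starting values. Scaled dab2 read 113 and 127 with the transgene and 124 and 129 without, a clutch difference of 0.11. Scaled stab1 differed by 0.23, stab2 by 0.54, lyve1b by -0.0045, TLL1 by -0.060, DAB2 by -0.44 and lyve1a by -0.55. The median of all genes moved to -0.55, the same as lyve1a. Scaled NR2F2 read 105 and 25.8 with the transgene and 91.6 and 29.2 without, a clutch difference of -1.8 (limma adjusted p = 0.258). None of the 8 rows passed after this scaling.

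**Figure D4:**
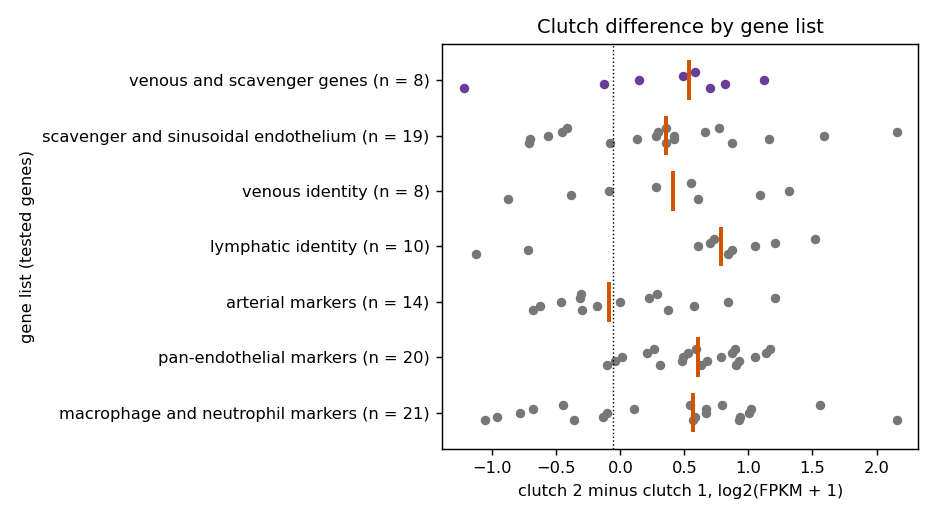
Clutch 2 minus clutch 1 in log2(FPKM + 1) for the 8 rows (purple) and the tested genes of 6 lists (grey), with orange bars at the list medians and a dotted line at the median of all tested genes (-0.06). The set median of 0.54 stands beside 0.61 for pan-endothelial, 0.57 for macrophage and neutrophil and -0.09 for arterial markers. The scavenger, venous and lymphatic lists have medians of 0.35, 0.41 and 0.79. The lists share some genes, so their medians are not independent. marco is in the scavenger and macrophage lists and FLT4 in the venous and lymphatic lists. sox18 is in the lymphatic and pan-endothelial lists and VEGFC in the lymphatic and arterial lists. NR2F2 is the purple point at -1.22.

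Other genes of scavenger and sinusoidal endothelium gave 0 calls of 19 tested by genotype, 13 above 0 and 6 below, with a median of 0.17 beside 0.16 for all genes. Relative to all genes that median ranged from -0.25 (without kdrl:cxcr1 clutch 2) to 0.25 (without kdrl:cxcr1 clutch 1). The lysosomal protease genes ctsla (332 and 616 FPKM with the transgene, 295 and 396 without) and LGMN (130 and 181, 103 and 134) and the lysosomal membrane gene scarb2a (79.0 and 109, 70.6 and 84.1) were the most abundant. GPR182, the gene of an atypical chemokine receptor of sinusoidal endothelium, read 61.4 and 72.5 FPKM with the transgene and 23.4 and 36.2 FPKM without it (1.17 on the log2 scale, SE 0.37, limma adjusted p = 0.699). The lysosomal protease gene CTSH read 15.9 and 12.0 FPKM against 31.9 and 63.4 (-1.63, SE 0.47, adjusted p = 0.699), and the C-type lectin gene cd302 14.0 and 16.9 against 21.8 and 94.7 (-1.51, SE 0.71). The groups did not overlap for 7 of the 19, beside 39.6% of all tested genes.

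Venous identity genes beside NR2F2 gave 0 calls of 8 tested, 4 above 0 and 4 below, with a median of 0.02, which relative to all genes was -0.14 and turned to 0.43 without wild-type clutch 2. FLT4, the receptor gene for VEGF-C, was the most abundant at 61.6 and 81.5 FPKM with the transgene and 38.9 and 69.2 FPKM without it (0.44, SE 0.41, limma adjusted p = 0.811). The apelin receptor genes aplnra (28.7 and 40.9 against 29.5 and 96.5 FPKM) and aplnrb (24.1 and 44.4 against 15.5 and 55.2) were higher in clutch 2 in both genotypes, unlike NR2F2. nr2f5, an orphan nuclear receptor gene of the same family, read 8.41 and 5.53 FPKM against 4.20 and 3.40. It was lower in clutch 2 in both genotypes (clutch difference -0.38, limma adjusted p = 0.968). Its clutches overlapped, while those of NR2F2 did not.

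Lymphatic identity genes gave 0 calls of 10 tested, 8 above 0 and 2 below by genotype, with a median of 0.35. Relative to all genes that median was 0.19, and it turned to -0.27 without kdrl:cxcr1 clutch 2, to -0.29 without wild-type clutch 1 and to -0.091 with a filter of 5 FPKM. By clutch, 8 were higher in clutch 2, with a median of 0.79. TBX1 (63.9 and 142 FPKM with the transgene, 109.6 and 132 without) and sox18 (27.4 and 70.0, 31.0 and 54.2), both transcription factor genes, were the most abundant beside FLT4. CCBE1, which encodes a matrix protein needed to activate VEGF-C, read 5.72 and 26.4 FPKM against 3.87 and 8.83 (0.97, SE 0.81, limma adjusted p = 0.786). ADAMTS14, a gene of the procollagen-processing protease family, read 4.65 and 2.23 FPKM against 2.24 and 1.08 (0.72, SE 0.69).

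Genes of the endocytic machinery, in which dab2 acts, gave 0 calls of 23 tested by genotype, 11 above 0 and 12 below, with a median of -0.03. The epsin gene EPN2 (20.7 and 18.3 FPKM with the transgene, 7.31 and 5.86 without), the clathrin light chain gene CLTA (59.5 and 101, 26.3 and 54.3) and GGA1, an adaptor gene of the trans-Golgi network (13.4 and 18.8, 9.94 and 7.05), came first by p. Their log2 fold changes were 1.44 (SE 0.43), 1.01 (SE 0.49) and 0.85 (SE 0.46), with limma adjusted p of 0.699, 0.699 and 0.708. Hyaluronan is the ligand of stab2 and the lyve1 products. Genes of its synthesis, breakdown and binding gave 0 calls of 12 tested, 9 above 0 and 3 below, with a median of 0.72. Relative to all genes it was 0.57, against 0.13 when wild-type clutch 2 was left out, 0.30 when kdrl:cxcr1 clutch 2 was, 0.21 with a filter of 5 FPKM and 0.27 with a pseudocount of 5. The hyaluronan link protein gene hapln1a (84.0 and 43.7 FPKM against 169 and 88.0; -1.0, SE 0.49) and the surface hyaluronidase gene CEMIP2 (14.5 and 12.7 against 61.4 and 19.6; -1.3, SE 0.60) were lower in kdrl:cxcr1 in each clutch. HYAL4, a member of the hyaluronidase family, read 3.31 and 3.06 FPKM against 0.812 and 0.831 (1.2, SE 0.64, adjusted p = 0.704).

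Markers of endothelium and of other cells had 0 calls in each list by genotype, with the values below as log2 fold changes. Pan-endothelial rows had 9 above 0 and 11 below by genotype (median -0.05), led by TAL1 (1.96), plvapb (-0.59) and mmrn2b (0.57). Arterial rows had 7 above and 7 below (median 0.0062), led by TBX20 (-1.37), HEY2 (0.64) and dlc (-0.55). Macrophage and neutrophil rows had 18 of 21 above 0 (median 0.56, but 0.012 in clutch 1 and 1.0 in clutch 2, and relative to all genes 0.40, against -0.094 without kdrl:cxcr1 clutch 2), led by npsn (1.55), 1 of 6 MFAP4 rows (ENSDARG00000090783, 1.55) and c1qc (-2.51). Erythroid rows had 10 of 13 above 0 (median 1.22), led by cahz (1.22), tfr1a (1.47) and hbae1.1 (1.6). Epidermal rows had 16 of 18 below 0 (median -0.85, but -0.17 in clutch 1 and -1.47 in clutch 2), led by krt4 (-1.77), krt5 (-1.24) and agr1 (-1.59). Liver, gut and yolk rows had 11 of 14 below 0 (median -1.15, with -0.62 in clutch 1 and -1.64 in clutch 2), led by CP (-1.67), FABP2 (-1.84) and apoa2 (-1.98).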

How the data were processed

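The authors deposited 1 table of FPKM values with 1 column per library, 31951 rows and 0 further columns. Per the labels' protocols, a SMARTer kit for low RNA input was used. Cutadapt, TopHat2 2.0.11, Cufflinks 2.2.1 and build GRCz10 are named in the submitters' processing notes. Not given in the sources used here are the annotation, whether strand was used, and any scaling across libraries. A 0 in Cufflinks output can be a failed estimate. Non-zero values went down to 3.16e-06 FPKM, so they are not whole-read steps and depth is unknown. A naming table gave a symbol to 26120 identifiers. Reads of near-identical copies may be split between rows.

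The test was run on log2(FPKM + 1) with limma 3.58.1 under R 4.3.3 (intensity trend, two-sided, Benjamini-Hochberg over 17723 genes with at least 1 FPKM in at least 2 libraries, threshold 0.05). The median standard error was 0.623 by genotype. The procedure was tested on simulated data with raised levels and with the spread of each gene capped at the median spread. That setting is less noisy than these libraries, so it does not show what could be detected here. The members and lists were chosen with earlier results of these data known. Of 242 list entries, 184 matched a symbol or a RefSeq synonym held by a single row. The text names all members, kdrl and cdh5, the 3 genes of each list with the smallest genotype p, and the 3 most abundant of the scavenger, venous and lymphatic lists; the rows with related symbols, c1qa, c1qb and ptprc were named after their values were seen. Clutch numbers pair the samples by label, and deviations from the group means correlated at 0.116 within a clutch.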

Additional observations from a re-analysis of the deposited data

How the results depend on the processing

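In all 11 alternatives to each comparison 0 of the 8 rows passed. The count of all genes called by genotype, 2, fell to 0 with the replicate block (clutch), with a pseudocount of 0.1, without a filter on low values, and without any 1 library (0 to 0). The count by clutch, 3, became 1 with a pseudocount of 0.1 and 1 without a filter. It ranged from 0 (without kdrl:cxcr1 clutch 1 or wild-type clutch 1) to 15 (without wild-type clutch 2), with 11 without kdrl:cxcr1 clutch 2. The cause was not tested. The block changed no other call.

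Genotype differences turned sign under median-of-ratios scaling for stab1 (-0.17), stab2 (-0.082), NR2F2 (-0.19) and MRC1 (-0.18). With 1 library left out they ran from -0.37 to 0.50 for stab1, -0.65 to 0.94 for stab2, -0.45 to 0.35 for dab2, -0.74 to 0.82 for NR2F2, -0.49 to 0.58 for MRC1 and -0.51 to 1.21 for mrc1b. Clutch differences turned sign after scaling to pan-endothelial markers for lyve1b (-0.0045), DAB2 (-0.44), TLL1 (-0.060), PROX1 (-0.011) and ifi30a (-0.40), and with a pseudocount of 5 for lyve1a (0.10). With 1 library left out they ran from -1.53 to 1.27 for lyve1a, -0.094 to 0.38 for DAB2, -0.40 to 1.39 for TLL1 and -0.53 to 0.65 for ifi30a. For the list medians by genotype, relative to all genes, each alternative was compared with the main value. The shift was within the spread between the clutch medians for 88 alternative values and beyond it for 33. That spread was narrow for some lists, so small shifts exceeded it. The erythroid medians, for example, were 1.018 in clutch 1 and 1.007 in clutch 2. With 1 library left out the list medians ran from -0.25 to 0.25 for the scavenger and sinusoidal, -0.27 to 0.43 for the venous, -0.29 to 0.49 for the lymphatic, -0.19 to 0.0043 for the endocytic, 0.13 to 0.67 for the hyaluronan, -0.57 to 0.24 for the pan-endothelial, -0.31 to 0.07 for the arterial, -0.094 to 0.77 for the macrophage and neutrophil, 0.58 to 1.14 for the erythroid, -1.5 to -0.58 for the epidermal and -1.72 to -1.01 for the liver, gut and yolk list. The sign changes given above for single genes were 28 of 260 values for single genes, none past the threshold. lyve1a and ifi30a were not tested under the filter of 5 FPKM. Groups of 2 libraries and unknown depth limit what could be detected.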
